A study of Mus musculus with 37 samples.

Results

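The 10 genes described here are Duxf3 and 9 transcripts that appear with it in the early mouse embryo: Zfp352, Tcstv1, Tcstv3, Ubtfl1, Sp110, Spz1, Arg2, Gm4340 and B020004J07Rik. They were taken by symbol from the 4 RNA-seq tables of a study of the Hira complex in mouse oocytes, whose tables list 29296 symbols in all. All 10 were listed in both 2-cell tables, 8 in the table of Hira-deleted germinal vesicle (GV) oocytes (Spz1 and Gm4340 were not listed there) and 7 in the table of Cabin1-deleted GV oocytes (Duxf3, Spz1 and Gm4340 were not listed).

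Duxf3 is the mouse Dux gene, which encodes a homeodomain transcription factor present briefly at the onset of zygotic genome activation, the step at which the embryo begins to transcribe its own genome. Dux binds and activates many genes and retroviral long terminal repeats that are transcribed at the 2-cell stage, and it is held silent in other cells by chromatin regulators. A fully grown GV oocyte is transcriptionally quiet and carries maternal RNA, so most 2-cell transcripts are scarce there. The Hira complex (Hira, Ubn1 and Cabin1) is a chaperone that places histone H3.3 into chromatin independently of DNA replication.

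All mice were C57BL/6. In the ZH line a floxed Hira gene, and in the CabZ line a floxed Cabin1 gene, was deleted by Cre driven from the Zp3 promoter, which is active in the female germline, so the deletion is maternal. Homozygous mutants (KO) were compared with heterozygotes (Het) that carry the same Cre, in GV oocytes for ZH (ZH KO GV and ZH Het GV), in GV oocytes for CabZ (CabZ KO GV and CabZ Het GV) and in 2-cell embryos for CabZ (CabZ KO 2-cell and CabZ Het 2-cell). In the injection experiment, wild-type GV oocytes received in vitro transcribed Zscan4d or GFP RNA, were matured in culture, activated without sperm and collected at the 2-cell stage (Zscan4 OE 2-cell and GFP 2-cell). Each of the 8 groups had 4 RNA-seq libraries, except Zscan4 OE 2-cell, which had 3. ATAC-seq peak lists came from 3 CabZ Het GV and 3 CabZ KO GV libraries. Ages, and how the CabZ 2-cell embryos were made, are not given in the sources used here. The labels describe libraries from individual cells and the methods describe pooled oocytes, and nothing ties a library to a female, so p-values measure the spread between libraries, which may be partly technical. In such bulk samples fewer positive cells and less RNA per cell cannot be told apart.

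Values are FPKM, fragments per kilobase of annotated gene span (introns included) scaled to the size of the library. In the CabZ tables that size is the reads on listed genes alone. Listed genes held 74.2% to 74.7% of it in ZH Het GV and 65.6% to 68.1% in GFP 2-cell. CabZ values are therefore higher than those of the other tables by scale alone. Per library, an estimated 5819315 to 21869858 reads fell on listed genes, with the CabZ KO 2-cell libraries (5819315 to 6330242) shallower than CabZ Het 2-cell (7947414 to 8239523). The targeted genes were checked first. Hira was near the limit of counting in ZH Het GV (approximately 14, 14, 5 and 2 reads) and in ZH KO GV (0, 13, 7 and 1 reads), so it does not check those labels. Cabin1 had 117 to 209 reads in CabZ Het GV against 14 to 57 in CabZ KO GV, and 215 to 443 in CabZ Het 2-cell against 44 to 125 in CabZ KO 2-cell (two-sided exact permutation test in each, p = 0.0286, the smallest that 4 against 4 libraries can give). Zscan4d was not higher where the label names it. It measured 79.4 ± 7.94 FPKM (SD, n = 3) in the libraries labelled Zscan4 OE and 117 ± 34.4 FPKM (SD, n = 4) in GFP 2-cell. The groups overlapped (two-sided exact permutation test, p = 0.171). The paper reports raised Zscan4 after injection, against uninjected oocytes, by qRT-PCR, immunofluorescence and western blot. Those assays did not measure these 2-cell libraries. GFP 2-cell embryos held Zscan4d as well, and the values do not separate injected from embryonic RNA. Zscan4d therefore cannot check these labels in either direction. Oocyte markers were present in all GV libraries, and the summed level of granulosa and cumulus markers stayed at or below 2.66 FPKM in every GV library. Among the libraries, CabZ KO 2-cell replicate 4 had the lowest value of its group for 8 of the 10 genes, and the library labelled Zscan4 OE replicate B for 7 of 10. The values without these libraries are given beside the results they move most.

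The upstream sequences are printed for genes on which the results below turn, since some of them share sequence at their starts. RefSeq promoter sequence (GRCm38.p6, 250 bases before the start, 5′ to 3′ on the gene's strand) was matched for 7 of the 10 genes: Duxf3, Zfp352, Ubtfl1, Sp110 (with 2 starts), Spz1, Gm4340 and B020004J07Rik, the last under its RefSeq name Pramel17. Tcstv1, Tcstv3 and Arg2 had no entry. Capitals mark matches, on either strand, to GATTNAATC, the core of the motif described for mouse Dux, or to TAATCC, letters recognised by bicoid-type homeodomain factors. TGCACAC, letters linked to Zscan4 binding, was also searched. No matches overlapped.
Duxf3 (chr10:58233090-58233339, - strand): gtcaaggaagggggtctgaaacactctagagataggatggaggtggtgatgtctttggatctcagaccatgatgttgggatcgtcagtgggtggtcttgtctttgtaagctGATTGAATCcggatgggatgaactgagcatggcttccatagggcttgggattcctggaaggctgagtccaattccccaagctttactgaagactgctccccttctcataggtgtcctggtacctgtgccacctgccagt
Gm4340 (chr10:104193792-104194041, + strand): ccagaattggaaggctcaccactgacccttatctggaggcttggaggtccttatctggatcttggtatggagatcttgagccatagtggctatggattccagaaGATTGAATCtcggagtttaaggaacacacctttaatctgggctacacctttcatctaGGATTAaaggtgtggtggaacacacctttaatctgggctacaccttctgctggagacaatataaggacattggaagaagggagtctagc
B020004J07Rik (chr4:101844023-101844272, - strand): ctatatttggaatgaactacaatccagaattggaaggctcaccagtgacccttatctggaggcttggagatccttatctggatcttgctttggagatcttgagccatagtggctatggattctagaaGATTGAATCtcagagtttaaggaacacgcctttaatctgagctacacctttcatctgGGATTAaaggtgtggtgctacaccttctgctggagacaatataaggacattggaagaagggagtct
Sp110, first start (chr1:85603892-85604141, - strand): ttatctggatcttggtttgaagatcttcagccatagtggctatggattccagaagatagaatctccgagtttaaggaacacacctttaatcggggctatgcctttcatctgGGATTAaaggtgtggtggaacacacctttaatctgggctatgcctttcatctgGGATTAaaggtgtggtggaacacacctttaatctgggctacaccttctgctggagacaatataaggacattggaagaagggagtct
Zfp352 (chr4:90218570-90218819, + strand): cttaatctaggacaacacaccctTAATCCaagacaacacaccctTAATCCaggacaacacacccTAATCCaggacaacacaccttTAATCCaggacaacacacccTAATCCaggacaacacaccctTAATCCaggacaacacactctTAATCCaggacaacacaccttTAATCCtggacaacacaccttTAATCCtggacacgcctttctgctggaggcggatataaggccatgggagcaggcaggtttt
Ubtfl1 (chr9:18404168-18404417, + strand): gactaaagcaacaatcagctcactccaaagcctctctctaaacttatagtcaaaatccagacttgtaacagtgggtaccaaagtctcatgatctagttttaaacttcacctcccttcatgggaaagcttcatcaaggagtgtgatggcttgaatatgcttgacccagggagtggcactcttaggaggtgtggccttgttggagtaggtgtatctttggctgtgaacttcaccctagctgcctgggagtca

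TAATCC occurred 9 times in the Zfp352 sequence, and it was also present at both Sp110 starts, in Gm4340 and in B020004J07Rik, so in 5 of the 8 sequences of these genes. Of all 32851 promoter sequences of this length, 6.25% held it at least once and Zfp352 was the only one with 5 or more matches. GATTNAATC occurred once each in Duxf3, Gm4340 and B020004J07Rik, against 0.247% of all promoters. TGCACAC was found in none of the 8 sequences of these genes and in 3.67% of all promoters. The Gm4340 sequence and the sequence at the first Sp110 start shared an identical run of 86 bases, and B020004J07Rik shared a run of 50 bases with each of them. No other pair of different genes shared more than 15. The Duxf3 start in RefSeq lies 414 bases upstream of the gene start used in the tables, and the first Sp110 start 5074 bases upstream. These matches describe letters in a window and do not show binding.

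The genes lie on 6 autosomes, all annotated as protein coding (GRCm38, GENCODE M21): Duxf3 at chr10:58229979-58232675, Gm4340 at chr10:104194042-104196522, Zfp352 at chr4:90218820-90225702, B020004J07Rik (Pramel17 in RefSeq) at chr4:101834969-101844023, Tcstv1 at chr13:119893388-119894785, Tcstv3 at chr13:120316878-120318178, Spz1 at chr13:92574636-92576172, Ubtfl1 at chr9:18404418-18413177, Sp110 at chr1:85576899-85598817 and Arg2 at chr12:79130777-79156301. Several have near copies, which bears on what their FPKM can mean. For Gm4340, 94.5% of the 100-base windows of its longest transcript were found exactly in other annotated genes, for Duxf3 33.6%, for Sp110 27.7%, for Tcstv3 7.79%, for B020004J07Rik 5.11% and for Tcstv1 4.06%. Values of Gm4340 and Duxf3 are therefore uncertain as values of those copies alone. The shared windows of Tcstv1 and Tcstv3 were with each other and with Gm21818. Arg2 and Sp110 also overlap genes on the opposite strand by 285 to 997 bases.

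The 10 genes fell into distinct level patterns over the groups. Tcstv1 and Tcstv3, members of a family of small 2-cell proteins linked to telomere length in embryonic stem cells, were already abundant in GV oocytes. Tcstv1 stood at 68.1 ± 12.5 FPKM (SD, n = 4) in ZH Het GV and 115 ± 7.6 FPKM in CabZ Het GV, and at 82.3 ± 37.4 FPKM in CabZ Het 2-cell and 153 ± 32.3 FPKM in GFP 2-cell. Tcstv3 was lower in control oocytes (15.7 ± 4.50 FPKM in ZH Het GV and 25.8 ± 1.84 in CabZ Het GV) than in control embryos (86.0 ± 29.0 in CabZ Het 2-cell and 91.7 ± 12.6 in GFP 2-cell). Arg2, the mitochondrial arginase, ran the other way, with 19.2 ± 1.01 and 27.9 ± 2.60 FPKM in the control oocytes and 9.86 ± 2.39 and 3.04 ± 0.460 FPKM in the control embryos. Sp110, a nuclear body protein of the Sp100 family, had its highest control level in CabZ Het 2-cell (25.3 ± 3.78 FPKM) and lay at 9.84 ± 0.474 in CabZ Het GV, 6.22 ± 0.743 in ZH Het GV and 5.98 ± 0.949 in GFP 2-cell.

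Zfp352, a zinc finger gene of the 2-cell stage, was at most 0.0272 FPKM in any control oocyte library and at 42.1 ± 12.2 FPKM in CabZ Het 2-cell. Ubtfl1, which encodes an HMG box protein related to the RNA polymerase I factor Ubtf, went from at most 0.0853 FPKM in control oocytes to 26.7 ± 3.39 FPKM in CabZ Het 2-cell and 6.43 ± 0.187 FPKM in GFP 2-cell. B020004J07Rik, a Prame-like gene, was at most 0.119 FPKM in control oocytes and at 8.45 ± 1.19 FPKM in CabZ Het 2-cell. Duxf3 itself stayed low at the 2-cell stage, at 0.230 ± 0.376 FPKM in CabZ Het 2-cell and 1.11 ± 0.468 FPKM in GFP 2-cell. The tables were normalised separately and the CabZ scale runs higher, so levels of different tables are set side by side without a test. Within the CabZ Het 2-cell group Tcstv3 and Tcstv1 had the highest FPKM. Zfp352, Spz1, Ubtfl1, Sp110, Gm4340, Arg2, B020004J07Rik and Duxf3 followed. Neighbours in that order overlapped in their libraries, except Sp110 with Gm4340 and B020004J07Rik with Duxf3. FPKM here divides by gene span with introns, so the order is not one of transcript numbers. Sp110, with a span of 21919 bases, had 3754 to 5295 reads in that group. Tcstv3, with a span of 1301 bases, had 497 to 1191.

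**Figure D1:**
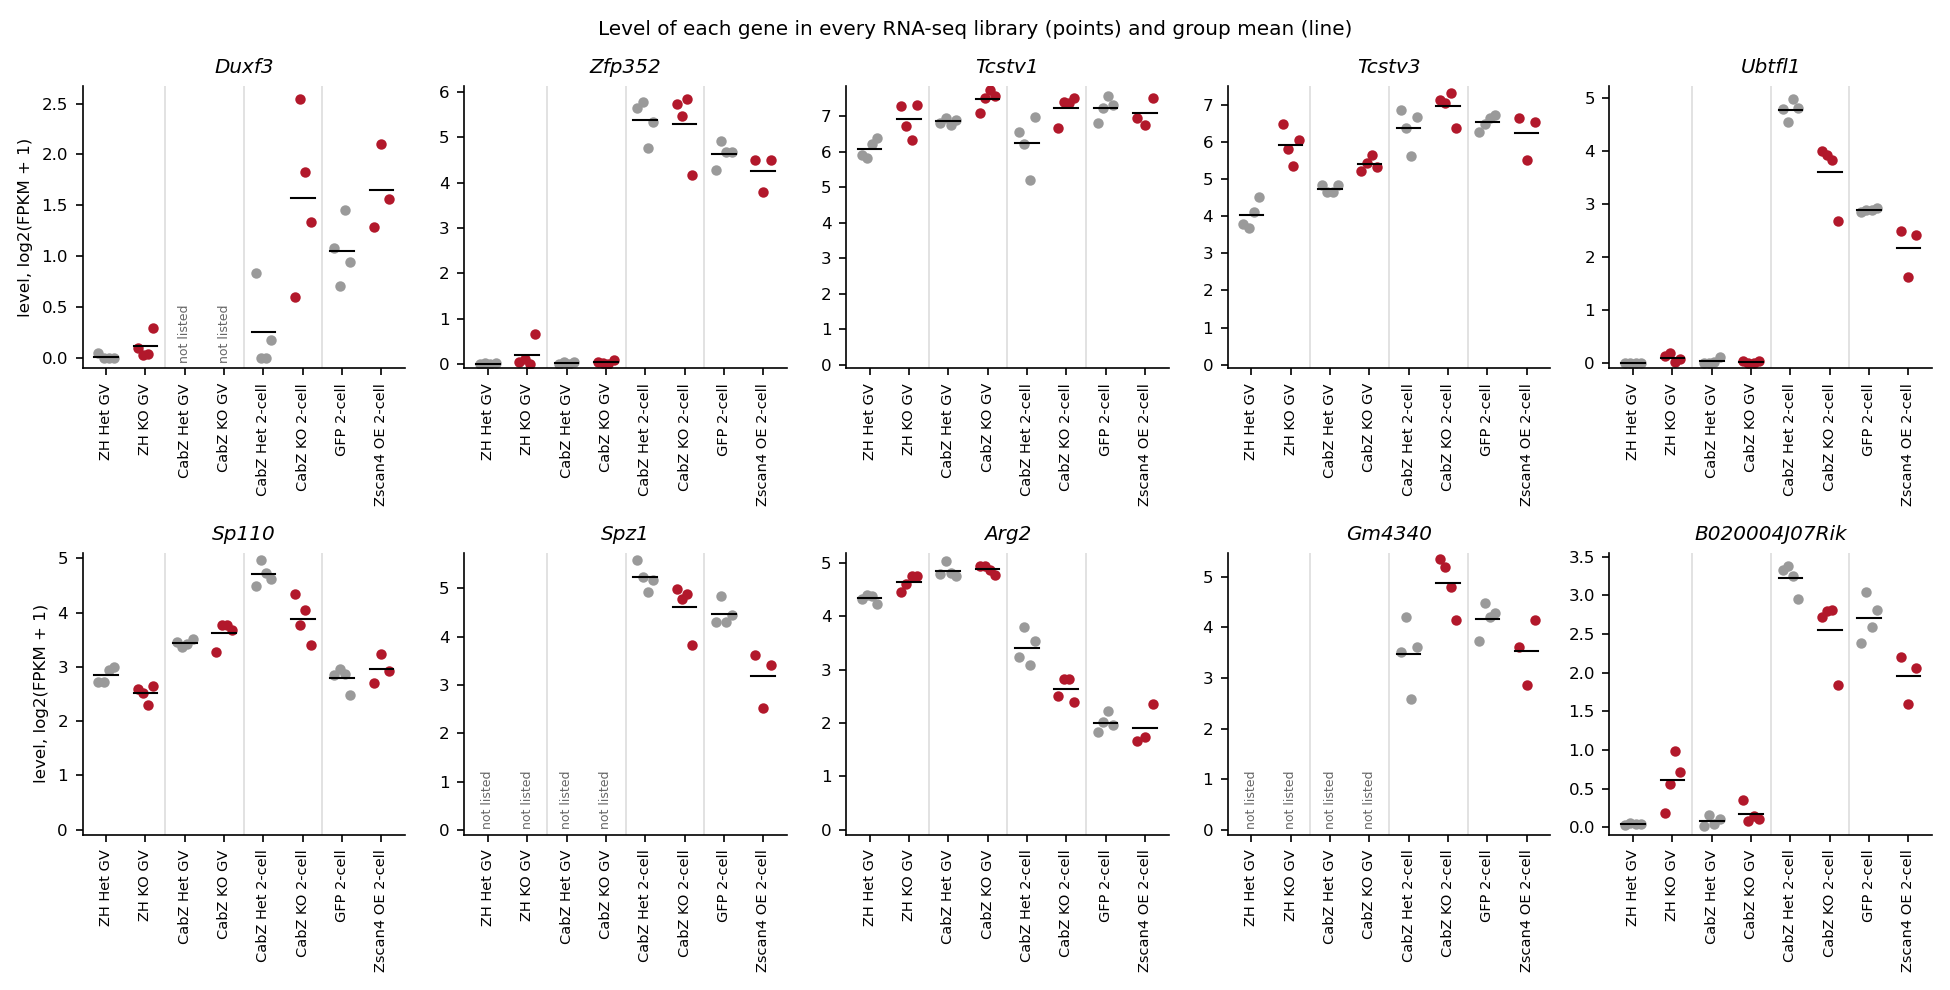
Level of each gene, as log2(FPKM + 1), in every RNA-seq library (points, controls grey and mutant or Zscan4 OE libraries red) with the group mean (line). Tcstv1 and Tcstv3 are high in all 8 groups, Arg2 is higher in oocytes than in embryos, and the other listed genes except Sp110 are near 0 in the control oocytes.

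The first comparison asked which transcripts change in the GV oocyte when Hira is deleted. Tcstv3 rose in ZH KO GV oocytes, and several genes that were almost silent in ZH Het GV had reads in ZH KO GV. Across the 5792 genes that averaged 1 FPKM or more, limma on log2(FPKM + 1) called 10.5% higher and 7.2% lower (adjusted p under 0.05 and fold above 2). Of the 4 genes tested here, 1 was called higher and 0 lower; their median log2 fold change was 0.57, against -0.04 over all genes tested. At an adjusted p under 0.05 with no fold threshold, 3 of the 4 were higher, where 25.6% of all genes were higher and 26.3% lower.

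Tcstv3 measured 12.9, 11.9, 16.2 and 21.9 FPKM in the ZH Het GV libraries and 88.6, 55.1, 39.9 and 64.7 FPKM in ZH KO GV. All KO libraries lay above all Het libraries, and the share of all genes separated in this way is not given here. The log2 fold change was 1.90 ± 0.26 (SE), with an adjusted p of 0.000325 by limma, and it stayed between 1.71 and 2.08 when any library was left out.

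Tcstv1 measured 59.2, 56.2, 74.5 and 82.5 FPKM in ZH Het GV and 155, 106, 79.8 and 159 FPKM in ZH KO GV. The groups overlapped through KO replicate 3, and the log2 fold change of 0.83 ± 0.23 (SE) passed on p alone (limma, adjusted p = 0.0147) but not on fold. Without that library Tcstv1 was also called, at a log2 fold change of 1.02 (limma, adjusted p = 0.00306).

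The other tested genes showed smaller differences. Arg2 measured 19.01, 20.07, 20.01 and 17.93 FPKM in ZH Het GV and 20.94, 23.52, 25.99 and 26.25 FPKM in ZH KO GV, a log2 difference of 0.31 ± 0.12 (SE) with a limma adjusted p of 0.0497. Scaling each library to a common median took Arg2 to 0.16 (limma, adjusted p = 0.3). Sp110 measured 5.607, 5.565, 6.72 and 6.997 FPKM in ZH Het GV and 4.99, 4.74, 3.90 and 5.29 FPKM in ZH KO GV, a log2 difference of -0.33 ± 0.13 (SE) with a limma adjusted p of 0.0538. Under the common median the log2 difference of Sp110 was -0.48 (limma, adjusted p = 0.0083), and that scaling moved the median of all genes from -0.04 to -0.19. The share of called genes that were higher was 59.2%, against 42.9% under the common median and 72.0% with libraries scaled only by their reads on listed genes.

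The remaining 4 listed genes averaged under 1 FPKM. They were compared by reads and by a two-sided exact permutation test of mean FPKM, with 7 such tests in both oocyte tables together. Those p-values were not adjusted for the number of tests. How many of all low genes reach the smallest possible p is not given here. B020004J07Rik had approximately 3, 4, 5 and 6 reads in ZH Het GV and 19, 69, 119 and 79 in ZH KO GV. Its level was 0.0310 ± 0.00486 FPKM against 0.560 ± 0.356 FPKM (SD, n = 4 each), an 18.0-fold ratio of means (exact permutation p = 0.0286, the smallest possible). In the fit without a filter on low values its log2 difference was 0.57 ± 0.16 (SE; limma, adjusted p = 0.0398 over 25053 genes).

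Ubtfl1 had 0 reads in all 4 ZH Het GV libraries and approximately 13, 19, 2 and 6 reads in ZH KO GV, a level of 0.0744 ± 0.0516 FPKM (SD, n = 4). Against a floor of 3 reads over the Het group this was at least 15.4-fold higher (exact permutation p = 0.0286). CabZ Het GV replicate 4, a control library of the other line, had approximately 8 Ubtfl1 reads (0.0853 FPKM). That is within the ZH KO GV range, so the fold holds against ZH Het GV only. Without the filter the adjusted p of Ubtfl1 in ZH GV was 0.0615 by limma. For both B020004J07Rik and Ubtfl1, leaving out any 1 Het library gave an exact permutation p of 0.0571. All KO libraries still lay above the Het libraries kept, so that p does not mark dependence on 1 Het library.

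Zfp352 had approximately 0, 1, 0 and 2 reads in ZH Het GV and 4, 9, 0 and 55 in ZH KO GV. Its KO mean of 0.176 ± 0.275 FPKM (SD, n = 4) thus came mostly from replicate 4 (exact permutation p = 0.143). The exact permutation p was 0.0286 without KO replicate 3, which had no read. Leaving out any other library gave 0.143 to 0.4. Duxf3 had approximately 1, 0, 0 and 0 reads in ZH Het GV and 3, 1, 1 and 8 in ZH KO GV (0.0871 ± 0.0951 FPKM, exact permutation p = 0.0857). The groups overlapped, so a difference in Duxf3 was not resolved, with 13 reads in all 4 KO libraries together against 1 in the Het libraries.

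Other measures moved with genotype in this table. Of 12 oocyte markers 1 rose and 3 fell (10.5% and 7.2% of all genes). Their summed level was 1438 to 2107 FPKM in ZH KO GV against 2364 to 2426 FPKM in ZH Het GV. Bmp15, an oocyte growth factor, fell by 2.16 on the log2 scale. Granulosa and cumulus markers, none of which reached the filter, summed to 1.20 to 2.66 FPKM in KO and 0.471 to 0.796 FPKM in Het libraries. Listed genes held 66.0% to 68.2% of the reads behind the FPKM scale in KO libraries, against 74.2% to 74.7% in Het libraries. Their part in the differences above was not tested.

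**Figure D2:**
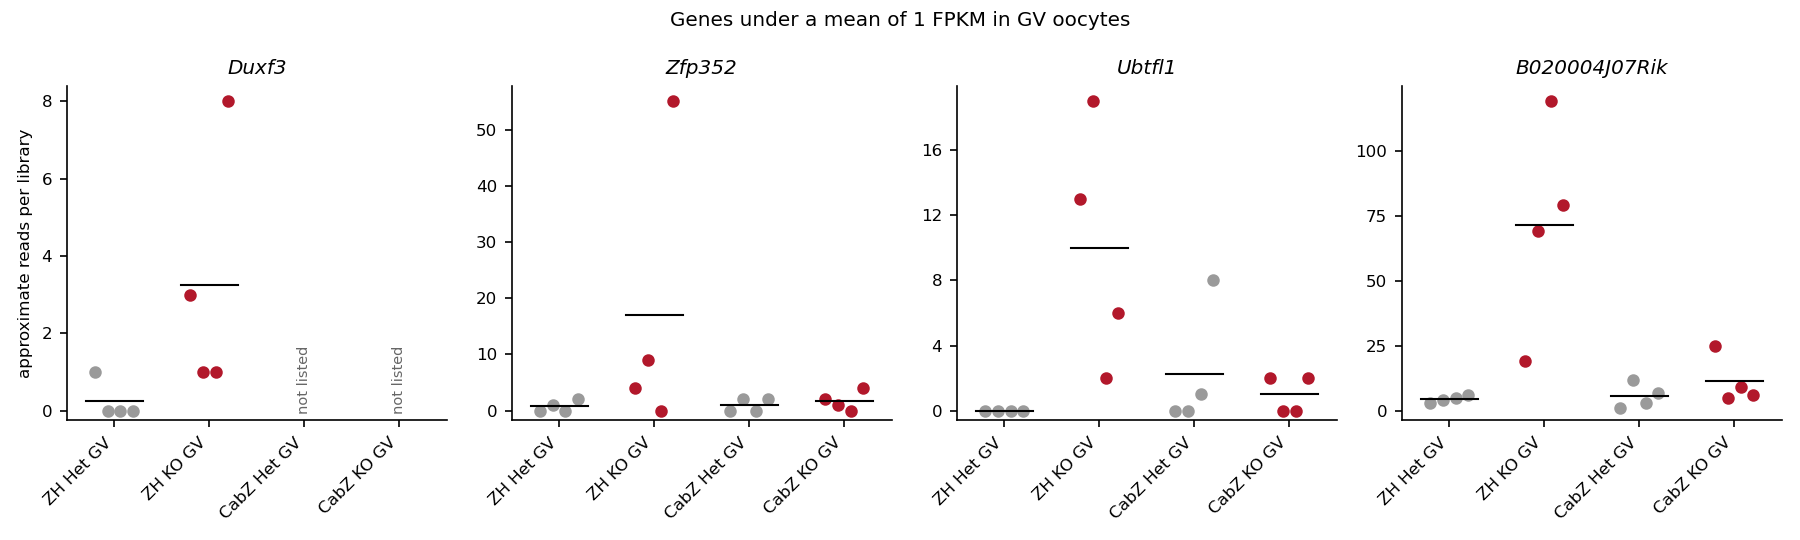
Approximate reads per library (vertical axis, linear) for the 4 genes that averaged under 1 FPKM in GV oocytes, with the group mean as a line and controls in grey. B020004J07Rik and Ubtfl1 are higher in all 4 ZH KO GV libraries than in any ZH Het GV library. How many of all genes split in this way is not given here. Ubtfl1 also has approximately 8 reads in CabZ Het GV replicate 4. The highest Zfp352 and Duxf3 points are both ZH KO GV replicate 4.

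The second comparison asked the same of Cabin1, and none of the tested genes passed both thresholds. Limma called 2.07% of 6339 genes higher and 0.836% lower, and 0 of the 4 tested genes in either direction. An unadjusted p under 0.05 was reached by 2 of the 4 and by 1704 of all 6339 genes. Without the fold threshold 2 of the 4 were higher, where 8.2% of all genes were higher and 5.73% lower.

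Tcstv3 measured 27.3, 24.2, 24.2 and 27.5 FPKM in CabZ Het GV and 35.9, 41.8, 49.3 and 39.0 FPKM in CabZ KO GV. Tcstv1 measured 112, 124, 107 and 119 FPKM in CabZ Het GV and 136, 183, 212 and 191 FPKM in CabZ KO GV. For both, every KO library was above every Het library, and the share of all genes separated in this way is not given here. The log2 fold change of Tcstv3 was 0.66 ± 0.12 (SE; limma, adjusted p = 0.0055) and that of Tcstv1 was 0.62 ± 0.14 (SE; limma, adjusted p = 0.0149), under the 2-fold threshold.

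Sp110 was 9.84 ± 0.474 FPKM in CabZ Het GV and 11.4 ± 1.91 FPKM in CabZ KO GV (SD, n = 4 each; limma, adjusted p = 0.395). Arg2 was 27.9 ± 2.60 against 28.5 ± 1.67 FPKM (limma, adjusted p = 0.864). B020004J07Rik had approximately 1, 12, 3 and 7 reads in CabZ Het GV and 25, 5, 9 and 6 in CabZ KO GV (exact permutation p = 0.257). Ubtfl1 had at most 8 and Zfp352 at most 4 reads in any library of this table (exact permutation p = 0.886 and 0.457). Differences in these 3 genes were not resolved, with overlapping groups and few reads. Of 12 oocyte markers 0 were called, and granulosa and cumulus markers summed to 0.929 to 1.45 FPKM in KO and 0.739 to 1.09 FPKM in Het libraries.

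ATAC-seq peaks, called by library in CabZ GV oocytes, were listed at few of these genes. A peak within 500 bases of the start was listed for Duxf3, Tcstv1 and Arg2, and in no library for more than 1 of the 10 genes. Over all 19033 genes of the CabZ GV table, 5.32% to 39.4% had such a peak, by library. Duxf3, Spz1 and Gm4340 are not in that table, so the background is not fully alike. The authors kept only unique alignments, and Gm4340 and Duxf3 share sequence with other genes. Whether this removed peaks there was not tested. The Duxf3 peak was listed in CabZ Het GV replicate C (6.74-fold enrichment over background, −log10 q of 10.5) and in CabZ KO GV replicate B (6.30-fold, 5.88). Its summit lay 1366 and 1386 bases downstream of the gene start, inside the gene. CabZ Het GV replicate A also had a Duxf3 peak (7.09-fold, −log10 q of 8.57), with its summit 1372 bases downstream. That peak lay within 2000 but not within 500 bases of the start. A Tcstv1 peak was listed in CabZ Het GV replicate A (3.54-fold, −log10 q of 1.84) and an Arg2 peak in CabZ KO GV replicate C (3.94-fold, 1.92). Peak numbers ranged from 43399 to 111327 in Het and from 19160 to 46070 in KO libraries, and no test was made.

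At the 2-cell stage the genes split in the CabZ comparison. Gm4340 rose and Ubtfl1 fell in CabZ KO 2-cell embryos. Duxf3 passed the test as well, but it reached the filter through the KO group alone and its call depended on the filter and on 1 library. Zfp352 showed no difference beyond its spread. Of 7798 genes tested by limma, 16.9% were called higher and 20.4% lower. Of the 10 genes, all tested, 2 were called higher (Gm4340 and, with that limit, Duxf3) and 1 lower, shares close to those backgrounds, and their median log2 fold change was -0.34 against -0.11 over all genes. Without the fold threshold 3 were higher and 4 lower, where 25.2% and 30.9% of all genes were.

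Duxf3 measured 0.787, 0, 0 and 0.135 FPKM in CabZ Het 2-cell (approximately 17, 0, 0 and 3 reads) and 0.514, 4.84, 2.55 and 1.52 FPKM in CabZ KO 2-cell (8, 82, 44 and 24 reads). The lowest KO library lay below the highest Het library, and the others above it. The log2 fold change was 1.32 ± 0.39 (SE; limma, adjusted p = 0.0171), and the groups overlapped. With no filter the adjusted p was 0.0605, and without KO replicate 2 its mean fell under 1 FPKM and it was not tested. On the log2(FPKM + 0.1) scale the log2 fold change was 3.15 (limma, adjusted p = 0.0135).

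Gm4340, a predicted gene whose upstream sequence is printed above, measured 10.4, 17.3, 5.00 and 11.2 FPKM in CabZ Het 2-cell and 39.5, 35.4, 26.9 and 16.8 FPKM in CabZ KO 2-cell. Only KO replicate 4 lay inside the Het range. The log2 fold change was 1.39 ± 0.37 (SE; limma, adjusted p = 0.0103), and it was 1.63 (adjusted p = 0.00584) without KO replicate 4. Gm4340 was called under every alternative, leave-one-out fits included. Its 94.5% overlap with other transcripts means that the reads cannot be assigned to this copy.

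Ubtfl1 measured 26.7, 22.4, 30.6 and 27.3 FPKM in CabZ Het 2-cell and 15.1, 14.2, 13.3 and 5.43 FPKM in CabZ KO 2-cell. All KO libraries lay below all Het libraries, and the share of all genes separated in this way is not given here. Ubtfl1 fell by 1.17 ± 0.30 (SE) on the log2 scale (limma, adjusted p = 0.00821). Its log2 fold change was -0.86 without KO replicate 4 (adjusted p = 0.00461), -0.93 under the common median, -0.97 under quantile normalization and -0.67 on the deposited scale, each under the 2-fold threshold.

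Tcstv1 measured 93.6, 74.2, 36.1 and 125 FPKM in CabZ Het 2-cell and 100, 169, 164 and 184 FPKM in CabZ KO 2-cell, a log2 difference of 0.99 ± 0.37 (SE; limma, adjusted p = 0.0434) just under the fold threshold. It was called at 1.23 under the common median (adjusted p = 0.022), which moved the median of all genes from -0.11 to 0.13, and at 1.26 under quantile normalization. Tcstv3 was 86.0 ± 29.0 FPKM against 127 ± 32.7 FPKM (SD, n = 4 each), a log2 difference of 0.59 ± 0.31 (SE; limma, adjusted p = 0.132). The share of called genes that were higher was 45.3%, and 60.9% under the common median.

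Arg2, Sp110 and B020004J07Rik passed on adjusted p but not on fold. Arg2 measured 8.48, 12.9, 7.51 and 10.6 FPKM in CabZ Het 2-cell and 4.72, 6.09, 6.13 and 4.29 FPKM in CabZ KO 2-cell (log2 difference -0.77 ± 0.21 SE, limma adjusted p = 0.0114). Sp110 measured 21.5, 30.4, 25.7 and 23.7 FPKM in CabZ Het 2-cell and 19.4, 12.7, 15.4 and 9.53 FPKM in CabZ KO 2-cell (log2 difference -0.82 ± 0.23 SE, limma adjusted p = 0.0136). In all 3 genes every KO library lay below every Het library. The share of all genes separated in this way is not given here. At an adjusted p under 0.05, 30.9% of all genes were lower. B020004J07Rik measured 9.02, 9.46, 8.55 and 6.75 FPKM in CabZ Het 2-cell and 5.61, 5.98, 6.05 and 2.58 FPKM in CabZ KO 2-cell (log2 difference -0.68 ± 0.25 SE, limma adjusted p = 0.0404). Without KO replicate 4 that difference was -0.45, with an adjusted p of 0.0636.

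Spz1, a basic helix-loop-helix factor known from the testis, was 36.9 ± 7.43 FPKM in CabZ Het 2-cell and 24.7 ± 7.96 FPKM in CabZ KO 2-cell (log2 difference -0.61, limma adjusted p = 0.0939), and the log2 difference was -0.34 without KO replicate 4. Zfp352 measured 49.0, 53.7, 26.2 and 39.5 FPKM in CabZ Het 2-cell and 52.1, 43.3, 56.3 and 17.1 FPKM in CabZ KO 2-cell, a log2 difference of -0.08 ± 0.38 (SE; limma, adjusted p = 0.881) that turned to 0.16 under the common median and to 0.30 without KO replicate 4.

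Other measures moved with this comparison. Of 11 oocyte markers tested, 6 rose and 0 fell in CabZ KO 2-cell embryos (16.9% and 20.4% of all genes), with a median log2 fold change of 1.46, and their summed level was 435 to 957 FPKM in KO against 147 to 229 FPKM in Het libraries. Ooep, of the maternal subcortical complex, was 228 ± 147 FPKM in KO and 33.9 ± 15.4 FPKM in Het (SD, n = 4 each; log2 fold change 2.64, limma adjusted p = 0.000918). Gdf9, an oocyte growth factor, was 48.3 ± 24.4 against 11.2 ± 1.98 FPKM (log2 fold change 1.89, limma adjusted p = 0.00161). Their part in the differences above, and that of the lower depth of the KO libraries, was not tested.

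**Figure D3:**
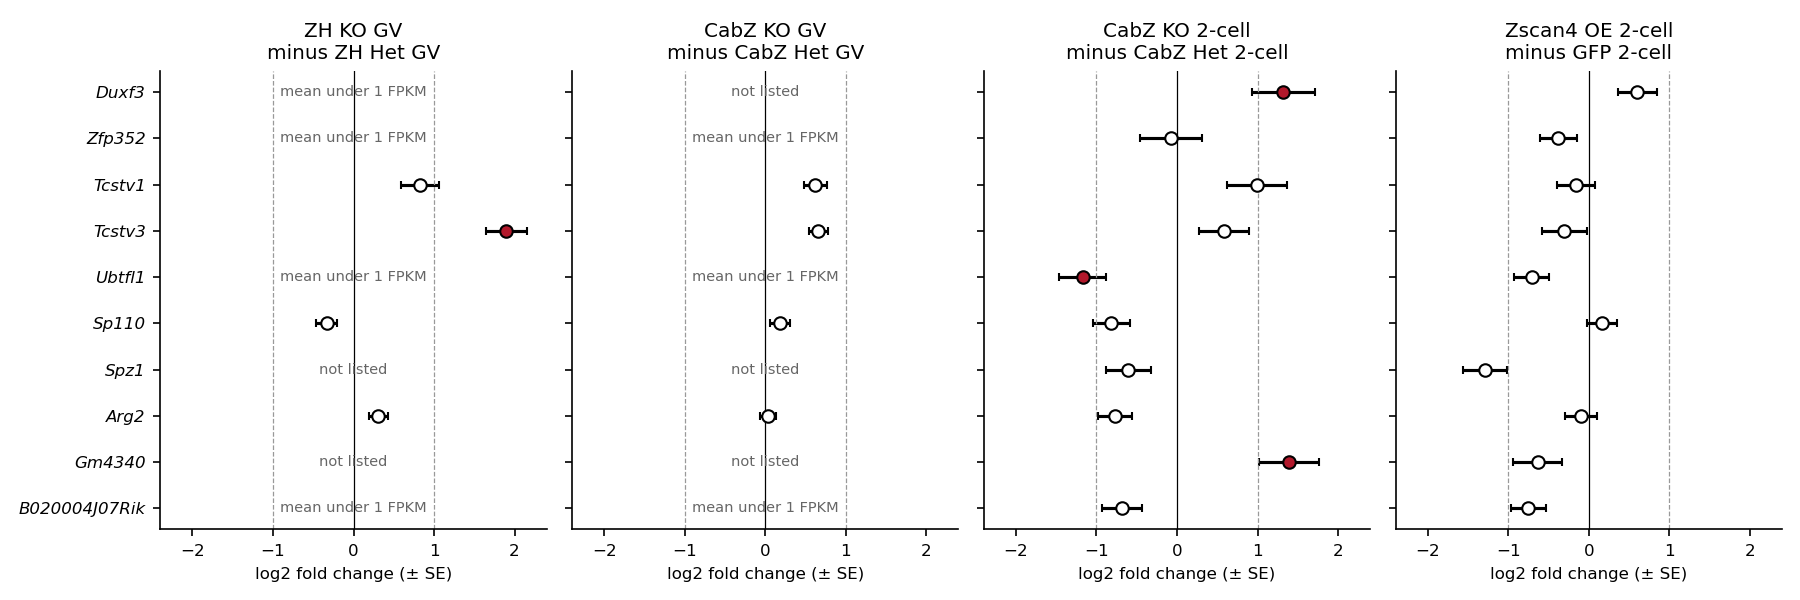
Log2 fold change of each gene (± SE, limma on log2(FPKM + 1)) in the 4 comparisons; filled points were called (adjusted p under 0.05 and fold above 2, dashed lines). The called points are Tcstv3 in ZH GV and Duxf3, Gm4340 and Ubtfl1 in CabZ 2-cell.

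**Figure D4:**
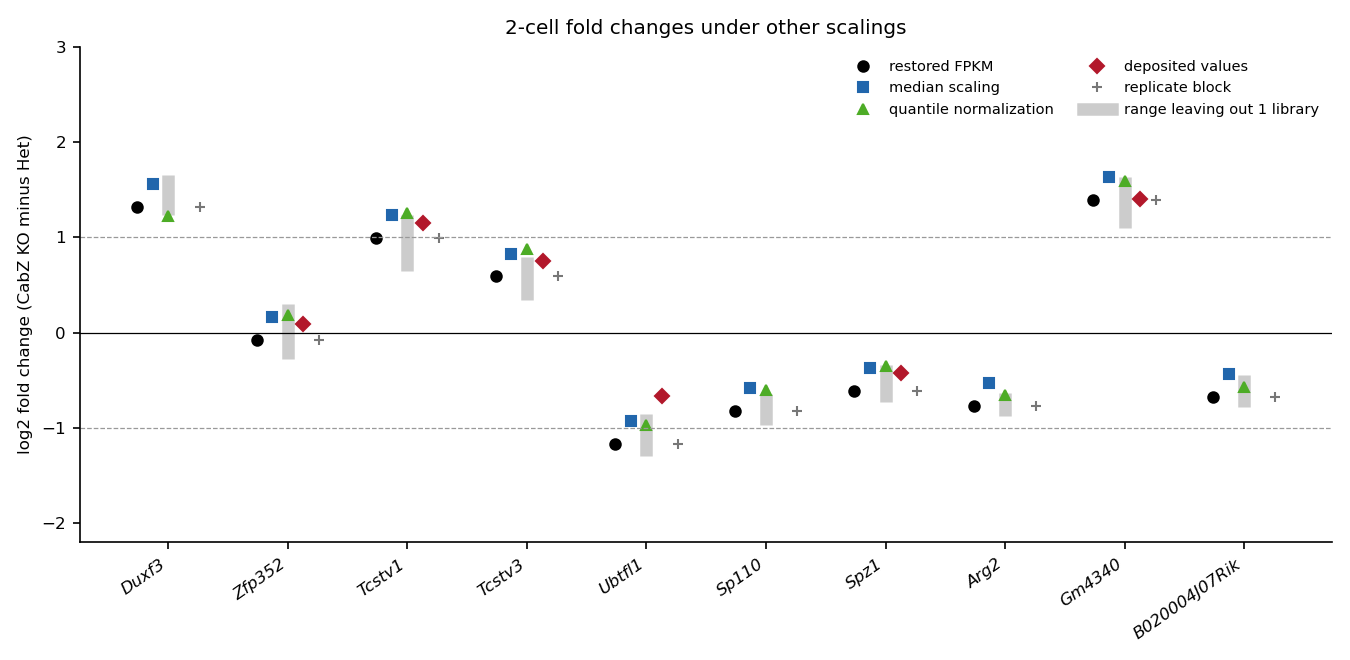
Log2 fold change of each gene in CabZ KO 2-cell minus Het on the restored FPKM scale and under 4 alternatives, with grey bars for the range when 1 library is left out and dashed lines at the 2-fold threshold; a gene averaging under 1 on the deposited scale has no diamond. Duxf3 and Gm4340 stay above the upper line where tested, Ubtfl1 crosses the lower line and Zfp352 crosses 0.

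In the injection experiment, 0 of the 10 genes were called in the libraries labelled Zscan4 OE against GFP 2-cell. Limma called 0.0233% of 4293 genes higher and 1.42% lower (0.0932% and 1.7% without the fold threshold). An unadjusted p under 0.05 was reached by 4 of the 10 genes and by 850 of all 4293. The log2 difference was negative for 8 genes and the median over the 10 genes was -0.34, against 0.03 over all genes tested. Since Zscan4d was not higher in the libraries labelled Zscan4 OE, these directions rest on labels that the RNA-seq values do not check.

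Spz1 came closest, with 18.6, 27.7, 18.6 and 20.9 FPKM in GFP 2-cell and 11.2, 4.72 and 9.70 FPKM in the libraries labelled Zscan4 OE. The latter all lay lower, and the share of all genes separated in this way is not given here. The log2 difference was -1.29 ± 0.27 (SE; limma, adjusted p = 0.0579), and -0.95 (adjusted p = 0.104) without replicate B. It was called when only genes above a mean of 5 FPKM were tested (adjusted p = 0.0415) and under the common median (log2 difference -1.19).

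Ubtfl1 measured 6.20, 6.46, 6.41 and 6.65 FPKM in GFP 2-cell and 4.62, 2.11 and 4.37 FPKM in the libraries labelled Zscan4 OE (log2 difference -0.71 ± 0.22 SE, limma adjusted p = 0.129). Without replicate B the log2 difference was -0.44. B020004J07Rik measured 4.20, 7.27, 5.02 and 6.04 FPKM in GFP 2-cell and 3.62, 2.03 and 3.17 FPKM in the other group (log2 difference -0.75 ± 0.22 SE, limma adjusted p = 0.12), and the log2 difference was -0.57 without replicate B.

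Duxf3 measured 1.12, 0.634, 1.74 and 0.931 FPKM in GFP 2-cell and 1.45, 3.29 and 1.96 FPKM in the libraries labelled Zscan4 OE, with overlapping groups (log2 difference 0.60 ± 0.24 SE, limma adjusted p = 0.221), and without replicate B the log2 difference was 0.38. Gm4340 was 17.3 ± 3.77 FPKM (SD, n = 4) against 11.4 ± 5.26 FPKM (SD, n = 3), with a limma adjusted p of 0.287, and its log2 difference went from -0.63 to -0.29 without replicate B. For Zfp352, Tcstv1, Tcstv3, Arg2 and Sp110 the log2 differences ranged from -0.38 to 0.16 and the adjusted p-values from 0.379 to 0.817.

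Other genes linked to Dux, a list of 43 2-cell genes gathered with earlier results of these data known, gave the wider setting. In ZH GV, 38 were listed and 9 tested, of which 8 rose and 1 fell. Over all genes 10.5% were higher and 7.2% lower. Of the 9 tested, 6 reached the filter only through the KO group, so the count had to lean upwards. The summed level of the list was 9.79 to 12.9 FPKM in ZH Het GV and 129 to 287 FPKM in ZH KO GV. Gm5039 was 0.669 ± 0.332 FPKM in ZH Het GV and 34.85 ± 12.97 in ZH KO GV (log2 fold change 4.35, limma adjusted p = 7.37e-06), and Usp17lb, a ubiquitin protease of a multicopy family, had a log2 fold change of 4.41. Both are among the 6 that reached the filter only through the KO group, so their values describe these genes and do not test the list. Zfp750, a zinc finger gene, fell by 1.25 on the log2 scale.

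In CabZ GV, where 2.07% of all genes were higher, 6 of 30 listed genes were tested and 2 rose, Gm5039 with a log2 fold change of 2.87 and Zscan4d with 1.33; 0 fell. In CabZ 2-cell, 8 of 37 tested genes rose and 5 fell, with a median log2 fold change of 0.46 against -0.11 over all genes. Over all genes 16.9% were higher and 20.4% lower, so these counts lie near the background. Gm5039 (2.92) and Gm8300 (2.52) had the largest increases and the Tdpoz family genes Tdpoz4 (-2.02) and Tdpoz2 (-1.97) the largest decreases. In the libraries labelled Zscan4 OE, 0 of 35 tested genes rose and 4 fell (1.42% of all genes fell; 5 of the 35 averaged under 1 FPKM in the injected group), with a median log2 fold change of -1.14 against 0.03, led by Gm4850 (-2.77) and Gm2016 (-2.12).

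Genes known to silence or promote Dux and the 2-cell state were counted in the same way. Of 25 in this list, 13 were tested in ZH GV, where 0 rose and 2 fell: Nelfa, a subunit of the negative elongation factor that promotes Dux, by 1.19, and Dnmt1, the maintenance DNA methyltransferase, by 1.09 on the log2 scale. Nelfa, at 0.597 FPKM in ZH KO GV and 2.60 FPKM in ZH Het GV, reached the filter through the Het group alone. Over all genes tested in ZH GV, 10.5% were higher and 7.2% lower. With that limit the ZH GV counts are no result about this list. In CabZ GV 0 of 16 were called (2.07% of all genes were higher and 0.836% lower). In the libraries labelled Zscan4 OE 0 of 10 were called (0.0233% and 1.42%). In CabZ 2-cell 1 of 14 rose, Pcgf6 of a Polycomb complex (log2 fold change 1.21), and 3 fell, led by Sumo2, a small modifier (-2.43), and Dppa4, an activator of Dux in embryonic stem cells (-2.17). Those counts stand against 16.9% of all genes higher and 20.4% lower, so they are no result about this list.

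Genes with the most similar pattern were sought for the 3 genes with the highest mean FPKM over all libraries among those listed in every table (Zfp352 is one of them through its 2-cell level alone), over 7813 genes and all 31 libraries, as log2(FPKM + 1) centred on the control mean of each table. The points share libraries and control groups, and the correlations are given as a description. Tcstv3 lay closest to Gm21818 (Pearson r = 0.94), with which it shares sequence, then to the stress factor Ddit3 (0.92) and the Notch target Hes1 (0.91). Tcstv1 lay closest to Rubcnl and Gtf2b (0.86 each) and Hist1h1e (0.85), and Zfp352 to Olfr881 (0.82), Gm9049 and Gm13078 (0.77 each). Tcstv1 and Tcstv3 correlated with each other at 0.74, and Tcstv3 with Zfp352 at 0.52.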

How the data were processed

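RNA-seq (Smart-seq2) covered 31 libraries and ATAC-seq 6. Per the labels and methods, reads were aligned to mm10 with STAR 2.5.3a and quantified in Partek Flow. The authors deposited FPKM with a small constant added (0.01, or 0.001 in the injection table) for ZH GV and the injection experiment. The CabZ tables hold a deposited score equal to FPKM divided by gene span and rescaled, and FPKM was restored by multiplying by span and dividing by the library's sum of score times squared span. Peaks (Bowtie2 2.3, MACS2, called by library) were deposited with fold enrichment and −log10 q-values, given by the authors' caller.

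The minimum of each table was subtracted. Genes averaging 1 FPKM or more over a table entered limma 3.58.1 (R 4.3.3), on log2(FPKM + 1), mutant against control within a table, with Benjamini-Hochberg adjustment over all genes tested; calls needed an adjusted p under 0.05 and a fold above 2. Log2 fold changes are on that scale and understate the change of low genes. Genes below the filter had a two-sided exact permutation test. Reads were estimated from the smallest step of each library's values (84.2% to 89.5% of low values lay within 0.1 of a whole number), so they are approximate; floors cover counting error only. All genes of the list are named; from other lists, up to 4 called genes a table with the largest changes. Members and lists were chosen with earlier results of these data known. The fit was tested on simulated data. No columns were left out as unmatched. Replicate numbers did not pair libraries.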

Additional observations from a re-analysis of the deposited data

Results flagged for a closer look

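Of 59 groups of 4 libraries examined for these genes, 4 held a library far from the other libraries of its group, where chance gives about 1 in 20. They were Duxf3 in ZH Het GV replicate 1 (0.0367 FPKM, the other Het libraries at 0), Zfp352 in ZH KO GV replicate 4 (0.586 FPKM), Ubtfl1 in CabZ Het GV replicate 4 (0.0853 FPKM) and B020004J07Rik in CabZ KO 2-cell replicate 4 (2.58 FPKM, below the others).

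For 2 genes every mutant or injected library moved one way from its control mean in one comparison and the other way in another; the difference between the comparisons was not tested. B020004J07Rik was above its control mean in all CabZ KO GV libraries (0.09 on the log2 scale) and below it in all CabZ KO 2-cell libraries (-0.68). Its GV difference was not resolved, with 5 to 25 reads in KO and 1 to 12 in Het libraries. Those groups overlapped (two-sided exact permutation test, p = 0.257). Gm4340 was above in all CabZ KO 2-cell libraries (1.39) and below in all libraries labelled Zscan4 OE (-0.63).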

How the results depend on the processing

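Among the called genes, Tcstv3 in ZH GV and Gm4340 in CabZ 2-cell were called under every alternative. Without the fold threshold 3 of 4 tested genes passed in ZH GV, 2 of 4 in CabZ GV and 7 of 10 in CabZ 2-cell, and 3006, 883 and 4376 of all genes. In the injection experiment 1 gene (Spz1) was called with a filter of 5 FPKM and 1 under the common median. Calls over all genes went from 1023 to 1645 in ZH GV and from 184 to 328 in CabZ GV with a pseudocount of 0.1, and to 578, 109 and 1650 (from 2914) with a filter of 5 FPKM in ZH GV, CabZ GV and CabZ 2-cell; the last was 1491 on the deposited scale. In the injection experiment the count was 62, and 5 in the fit with no filter. Leaving out 1 library gave 1 to 2 of these genes in ZH GV, 0 to 3 under the filter in the oocyte tables, and 18 to 100 calls over all genes in the injection experiment. The 0 arose without a ZH Het GV library, where the groups of B020004J07Rik and Ubtfl1 stayed apart.

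Replicate numbers did not pair libraries: deviations of same-numbered libraries correlated between -0.41 and 0.40, and in no table did every library correlate best with its own number. With the replicate number as a block, calls over all genes were 1016, 184 and 2886 in ZH GV, CabZ GV and CabZ 2-cell and 2 in the injection experiment, and the called genes of the list were the same.

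Directions that turned were of genes not called. Zfp352 in CabZ 2-cell became 0.16 under the common median, 0.18 under quantile normalization and 0.09 on the deposited scale, and -0.28 to 0.30 leaving out 1 library. Arg2 in the injection experiment was 0.00 under the common median and -0.31 to 0.03 leaving out 1 library, and Tcstv3 there -0.51 to 0.06. Ubtfl1 in CabZ GV was -0.0199 to 0.00853 FPKM (KO minus Het) leaving out 1 library, positive without Het replicate 4. Peaks at the start were listed for 1 gene at −log10 q of at least 5 and for 5 within 2000 bases, against 3. The cause of these changes was not tested. In the oocyte tables, Duxf3 had at most 8, Ubtfl1 at most 19 and Zfp352 at most 55 approximate reads in any library, so their differences carry large counting error.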
